A study of Mus musculus with 7 samples.

Results

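The mitochondrial ribosomal protein genes were taken as every gene of the expression table whose symbol begins with *Mrpl* or *Mrps* followed by a digit, which gave 77 of the 12239 genes measured. By symbol, 48 were named for the large subunit (*Mrpl*) and 29 for the small subunit (*Mrps*). RNA was sequenced from the tibialis anterior (TA), which is made up mostly of fast-twitch fibres, of male mice aged 5 to 6 months. All were of the FVBN background: 4 wild-type (WT) controls and 3 mice lacking *Mybpc2* (C2-/-), the gene of fast skeletal myosin-binding protein C. The C2-/- allele lacks *Mybpc2* exons 2 to 22 in all tissues, and the locus holds Neo and LoxP sequence. The series' design text gives 4 animals in each group, and 3 C2-/- libraries were analysed here.

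Mitochondria carry their own ribosome, which makes the few respiratory-chain proteins that the mitochondrial genome encodes. Its ribosomal RNAs are transcribed inside the organelle, whereas all of its proteins are encoded in the nucleus, made in the cytosol and imported. Many of these proteins descend from bacterial ribosomal proteins, and others are found only in mitochondria. Muscle depends on this ribosome for its respiratory capacity, and inherited defects in several of its proteins cause cardiomyopathy or encephalopathy in people.

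Expression is given as log2 CPM, where CPM counts a gene's reads for every 1000000 reads of its library after scaling. Changes are C2-/- minus WT on that log2 scale, with the standard error (SE) and the adjusted p of limma. To pass the threshold, a gene needed an adjusted p below 0.05 together with a change greater than 1.5-fold in either direction. The libraries differed in more than genotype. WT replicates 1 to 3 held 14929214 to 15464499 reads, WT replicate 4 held 4683853, and the C2-/- libraries held 2613277 to 4917936. Each library's departure, gene by gene, from the mean of WT replicates 1 to 3 (itself left out) was set against transcript GC content (the share of G and C bases). GC content took up 0.8% to 3.3% of the variance of that departure in WT replicates 1 to 3. It took up 9.5% in WT replicate 4 and 33.6% to 37.8% in C2-/-. Because this trend ran with genotype, the changes were also computed after a correction that removed the GC trend from each library. *Mybpc2* itself stood at 12.41 to 12.85 in WT and at -0.47 to 1.67, from 3 to 8 reads, in C2-/-. Of 12 fast-fibre markers 7 fell and the median change was -0.97, with summed levels of 210000 to 246000 CPM in WT and 109000 to 136000 CPM in C2-/-. With the GC trend removed, 2 of the 12 were lower and 1 higher, and their median was 0.05. Of 8 slow-fibre markers 0 passed in limma and 0 had an unadjusted p under 0.05, while 1 passed with voom, with summed levels of 84.9 to 191 CPM in WT and 96.0 to 134 CPM in C2-/- and *Myh7* at 0 reads in 4 libraries. With the GC trend removed, 1 of the 8 was higher.

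The members moved in both directions. In C2-/- muscle 24 of the 77 rose and 18 fell, and 35 did not pass the threshold. Over all genes tested, 20.2% rose and 25.0% fell. The changes of the members ran from -2.38 to 2.02 with a median of 0.02, beside a median of -0.14 over all genes. Relative to all genes the members' median lay at 0.16. It lay at -0.04 after quantile normalization, and also when genes of mean log2 value under 3 were left out. The quartiles of the members lay at -0.68 and 0.69, and those of all genes at -1.15 and 0.72. The C2-/- libraries lay wholly above the WT libraries for 22 members and wholly below them for 19, beside 22.6% and 26.7% of all genes. After the GC correction 17 members were higher and 7 lower, beside 12.3% and 8.33% of all genes, and the median of the members was 0.23, beside 0.02 over all genes. With transcript length corrected as well, 11 were higher (14.3%) and 8 lower (10.4%), beside 12.4% and 8.3% of all genes. The median of the members was then 0.14, beside 0.02. Without WT replicate 4 the counts were 24 higher and 24 lower, beside 23.5% and 26.6% of all genes. Without C2-/- replicate 3 they were 14 higher and 22 lower, and the shares of all genes in that fit are not given here. In whole muscle, fewer cells of a type and less RNA per cell cannot be told apart.

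**Figure D1:**
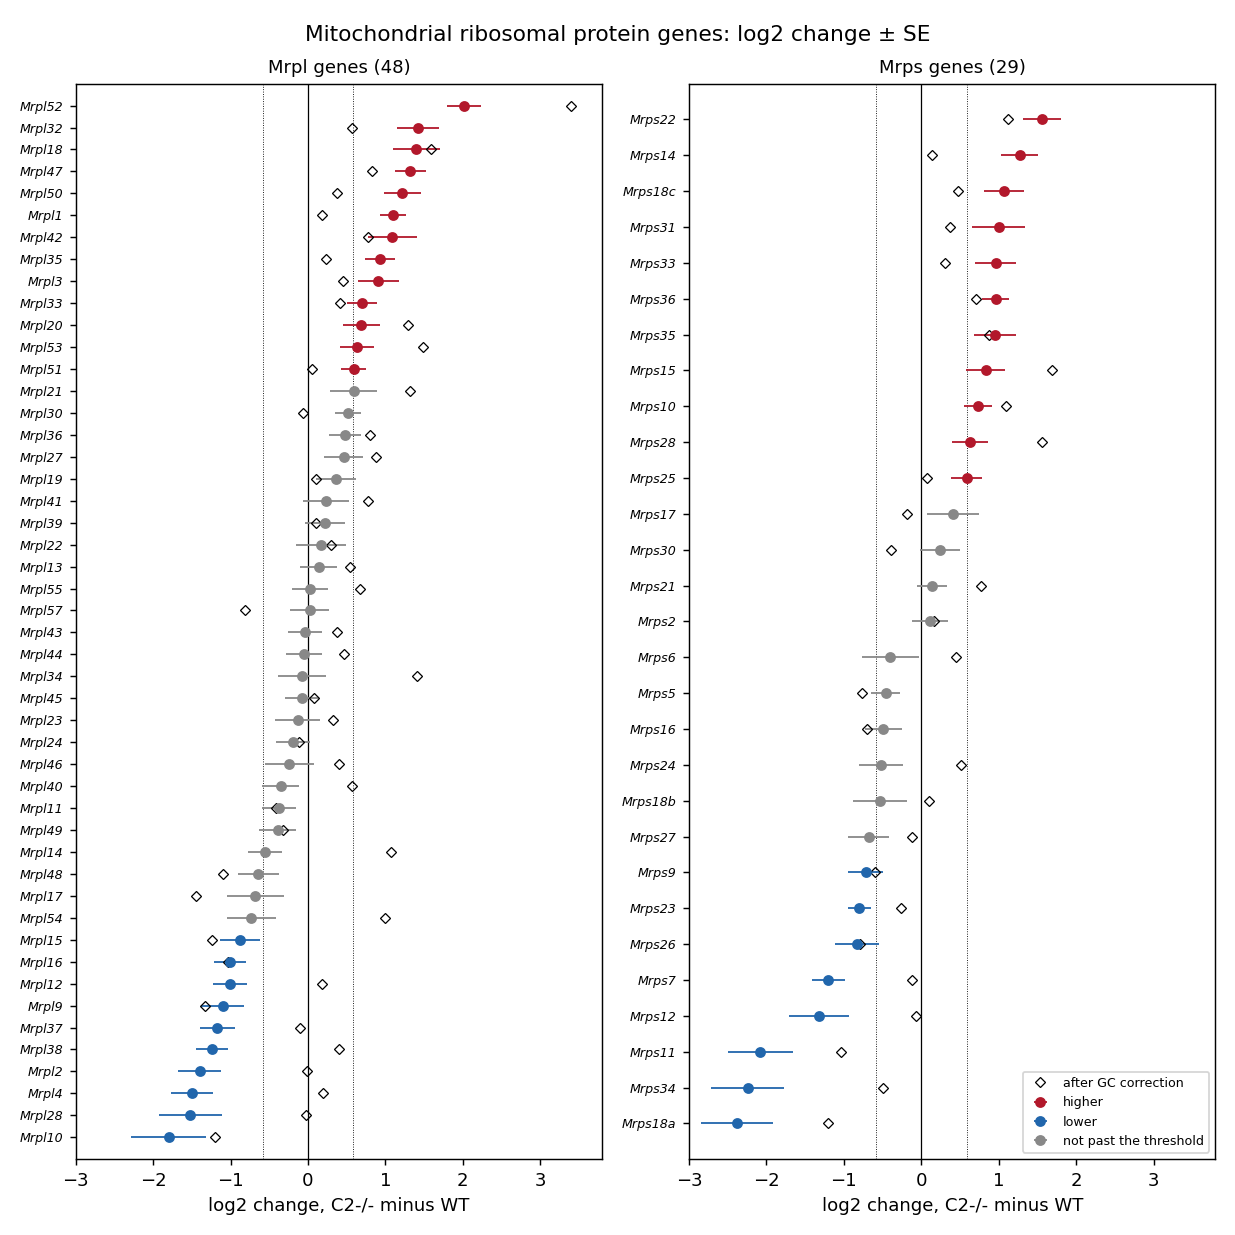
Log2 change (C2-/- minus WT, horizontal axis) of each of the 48 *Mrpl* genes (left) and 29 *Mrps* genes (right), ordered by change. Filled points with bars are the change ± SE on the deposited values, red for the 24 that rose, blue for the 18 that fell and grey for the rest; open diamonds are the change after the GC correction, and dotted lines mark a 1.5-fold change.

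Summed over the 77 members, the transcripts took 3298, 3172, 3431 and 3738 CPM in WT replicates 1 to 4 and 3776, 4135 and 4510 CPM in C2-/- replicates 1 to 3. The groups did not overlap, with WT replicate 4 the highest of the WT libraries. The mean was 3410 ± 243 CPM (SD, n = 4) in WT and 4140 ± 367 CPM (n = 3) in C2-/-, a difference of 730.0 CPM. *Mrpl42* and *Mrpl18*, picked out after their values were seen, accounted for 253 and 187 CPM of that difference. Without them the remaining 75 members summed to 2889 to 3126 CPM in WT and 3054 to 3552 CPM in C2-/-, ranges that overlapped. The *Mrpl* genes summed to 2307 ± 182 CPM in WT and 2909 ± 266 CPM in C2-/-, and the *Mrps* genes to 1103 ± 60.9 CPM and 1231 ± 112 CPM.

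Of the 48 *Mrpl* genes 13 rose (27.1%) and 10 fell (20.8%), with a median change of -0.01. Of the 29 *Mrps* genes 11 rose (37.9%) and 8 fell (27.6%), with a median of 0.11. These shares stand beside the 20.2% and 25.0% of all genes. Symbols do not always give a protein's place: the *Mrps18a* and *Mrps30* proteins sit in the large subunit, and the *Mrps36* protein belongs to the oxoglutarate dehydrogenase complex. Placed by structure, 13 of 50 large-subunit genes rose (26.0%) and 11 fell (22.0%), and 10 of 26 small-subunit genes rose (38.5%) and 7 fell (26.9%). Corrected for GC content, 11 *Mrpl* genes were higher (22.9%) and 6 lower (12.5%), and 6 *Mrps* genes were higher (20.7%) and 1 lower (3.4%). The same correction gave 12.3% higher and 8.33% lower over all genes. With length corrected as well, 6 *Mrpl* genes were higher and 5 lower, and 5 *Mrps* genes were higher and 3 lower. The shares of all genes were then 12.4% and 8.3%.

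The deepest fall was in *Mrps18a*, 1 of 3 mammalian relatives of bacterial ribosomal protein S18 and the one found in the large subunit (chromosome 17, 46110986 to 46128910 of GRCm38, plus strand, 6 exons). Its values were 5.73, 5.92, 5.83 and 6.31 in WT replicates 1 to 4 and 4.54, 2.23 and 3.95 in C2-/- replicates 1 to 3. All C2-/- libraries lay below all WT libraries, and the lowest of them, replicate 2, rested on 12 reads. The change was -2.38 ± 0.46 (SE, adjusted p = 0.00279), a 5.19-fold lower level. Corrected for GC content it was -1.20 ± 0.40 and no longer past the threshold (adjusted p = 0.0586), whereas corrected for GC content and length it was -1.47 and past it (adjusted p = 0.0216). Of the other relatives, *Mrps18c* rose by 1.07 ± 0.26 (adjusted p = 0.00778), and *Mrps18b* changed by -0.53 ± 0.35 (adjusted p = 0.228). *Mrps18c* read 4.50, 4.48, 4.28 and 4.50 in WT and 4.96, 5.58 and 5.98 in C2-/-, without overlap. *Mrps18b* read 4.80, 4.85, 4.98 and 3.58 in WT and 3.87, 4.21 and 3.98 in C2-/-, so that WT replicate 4 lay below every C2-/- library. Without that library *Mrps18b* was lower by 0.85 on the log2 scale and past the threshold (adjusted p = 0.00657). With the GC trend removed, *Mrps18c* stood at 0.48 (adjusted p = 0.174) and *Mrps18b* at 0.10 (adjusted p = 0.855). Exons of *Mrps18b* share 59.1% of their bases with the overlapping gene *Gm16279*, and whether the counting used strand was not stated.

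*Mrps34* and *Mrps11*, of the small subunit, fell next most. *Mrps34*, a mitochondria-specific protein (chromosome 17, 24895116 to 24897502, plus strand), read 5.45, 5.47, 5.5 and 4.73 in WT and 3.19, 1.83 and 4.13 in C2-/-. The change was -2.24 ± 0.47 (adjusted p = 0.00414), or -0.50 ± 0.39 (adjusted p = 0.383) after the GC correction. Its exons share 62.7% of their bases with *Mapk8ip3*, its C2-/- replicate 2 held 9 reads, the fewest of any member, and its transcript had the highest GC content of the members, 60.6%. *Mrps11*, the relative of bacterial S11 (chromosome 7, 78783119 to 78792989, plus strand), read 4.40, 4.42, 4.68 and 4.56 in WT and 3.29, 2.63 and 1.37 in C2-/-. The WT libraries lay close together and well above the highest C2-/- library, and the change was -2.08 ± 0.42 (adjusted p = 0.00337), or -1.04 ± 0.40 (adjusted p = 0.0872) after the GC correction. *Mrpl46*, which is transcribed away from *Mrps11* on the other strand and shares 16.4% of the exonic bases of *Mrps11*, changed by -0.24 (adjusted p = 0.544), or 0.40 (adjusted p = 0.439) after the correction. The shared bases belong to a noncoding transcript of *Mrpl46* in GENCODE M21, and its coding transcript does not overlap *Mrps11*.

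Of the other 5 *Mrps* genes that fell, *Mrps12*, *Mrps7* and *Mrps26* fell most. The *Mrps12* protein helps form the decoding centre, where codon and anticodon are matched. It read 4.05, 3.85, 4.09 and 3.46 in WT and 1.85, 2.44 and 3.33 in C2-/-, so that WT replicate 4 and C2-/- replicate 3 lay close together. The change was -1.32 ± 0.39 (adjusted p = 0.0194), and the call was lost when any of 4 single libraries was left out. *Mrps7* fell by 1.20 on the log2 scale (adjusted p = 0.00163), from 6.11 ± 0.22 (SD, n = 4) in WT to 4.91 ± 0.27 (n = 3) in C2-/-, and *Mrps26* fell by 0.83 (adjusted p = 0.0396). Corrected for GC content these 3 stood at -0.07, -0.12 and -0.79, none past the threshold. *Mrps23* (-0.80, adjusted p = 0.00281) and *Mrps9* (-0.72, adjusted p = 0.0288), which lie outside the naming rule, complete the 8. They stood at -0.26 and -0.60 after the correction, also not past it.

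Among the *Mrpl* genes the deepest falls were in *Mrpl10*, *Mrpl28*, *Mrpl4*, *Mrpl2*, *Mrpl38* and *Mrpl37*. *Mrpl10* is the anchor of the stalk that recruits translation factors. It read 5.47, 5.38, 5.51 and 5.02 in WT and 4.77, 2.23 and 3.62 in C2-/-, a change of -1.80 ± 0.48 (adjusted p = 0.0127). *Mrpl12*, the stalk protein itself, which also binds the mitochondrial RNA polymerase, read 6.56, 6.53, 6.72 and 5.86 in WT and 5.44, 5.36 and 5.43 in C2-/-. It fell by 1.01 ± 0.22 (adjusted p = 0.00495), and its C2-/- libraries lay closer together than its WT libraries. Both stalk genes were thus lower on the deposited values, whereas after the GC correction *Mrpl10* stood at -1.20 (adjusted p = 0.0693) and *Mrpl12* at 0.18 (adjusted p = 0.502). *Mrpl4* and *Mrpl2*, relatives of bacterial proteins near the exit tunnel and the peptidyl transferase centre, fell by 1.5 ± 0.27 (adjusted p = 0.00208) and 1.40 ± 0.28 (adjusted p = 0.00343). *Mrpl2* read 6.03, 5.97, 6.09 and 5.00 in WT and 4.52, 4.43 and 4.18 in C2-/-, with WT replicate 4 nearer to C2-/- than to the other WT libraries. *Mrpl28* (-1.52 ± 0.41), *Mrpl38* (-1.24 ± 0.21) and *Mrpl37* (-1.17 ± 0.23) also fell. After the GC correction *Mrpl28*, *Mrpl4*, *Mrpl2*, *Mrpl38* and *Mrpl37* stood between -0.10 and 0.40, with *Mrpl4*, *Mrpl38* and *Mrpl12* above 0.

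Of the 18 members that fell, 3 were also lower past the threshold after the GC correction: *Mrpl9*, *Mrpl16* and *Mrpl15*, all relatives of bacterial large-subunit proteins. Their changes were -1.10, -1.01 and -0.88 on the deposited values and -1.33 (adjusted p = 0.00967), -1.03 (adjusted p = 0.00912) and -1.24 (adjusted p = 0.0099) after the correction. These 3 were picked out after their values were seen.

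The highest rise was in *Mrpl52*, a large-subunit protein found only in mitochondria (chromosome 14, 54426909 to 54429756, plus strand, 4 exons). Its values were 3.77, 4.05, 3.83 and 4.35 in WT and 6.17, 5.99 and 5.89 in C2-/-. Every C2-/- library stood far above every WT library, and the spread within either group was small beside the gap between them. The change was 2.02 ± 0.22 (adjusted p = 0.000294), a 4.05-fold higher level, and 3.40 ± 0.28 (adjusted p = 0.000373) after the GC correction. It was past the threshold with any 1 library left out. Its transcript, at 57.5% GC, was among the more GC-rich of the members.

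*Mrps22*, a mitochondria-specific small-subunit protein whose loss causes cardiomyopathy in people (chromosome 9, 98588730 to 98601660, minus strand), read 4.25, 4.40, 4.33 and 3.90 in WT and 5.35, 6.00 and 5.97 in C2-/-. WT replicate 4, which sat towards C2-/- for many members, was here the WT library farthest from it. The change was 1.56 ± 0.24 (adjusted p = 0.00107), and 1.12 ± 0.24 (adjusted p = 0.0109) after the GC correction. Among other members linked to inherited disease, *Mrpl3* rose by 0.91 ± 0.26 (adjusted p = 0.019), and 0.45 after the correction (adjusted p = 0.262). *Mrpl44* changed by -0.05 ± 0.23 (adjusted p = 0.865) and *Mrps16* by -0.49 ± 0.24 (adjusted p = 0.122), and after the correction they stood at 0.46 (adjusted p = 0.185) and -0.70 (adjusted p = 0.059).

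*Mrpl32*, *Mrpl18*, *Mrpl47*, *Mrpl50* and *Mrpl1* followed *Mrpl52* in the large subunit. The *Mrpl18* protein lies in the central protuberance of the large subunit, and it read 6.50, 6.49, 6.68 and 7.63 in WT and 7.80, 8.18 and 8.68 in C2-/-. It rose by 1.40 ± 0.30 (adjusted p = 0.00486), and 1.59 ± 0.33 (adjusted p = 0.00924) after the GC correction. *Mrpl47* rose by 1.32 ± 0.20 (adjusted p = 0.001), and 0.83 ± 0.18 (adjusted p = 0.011) after it. *Mrpl32* read 4.82, 4.94, 4.66 and 5.75 in WT and 6.26, 6.37 and 6.76 in C2-/-, and with *Mrpl50* (1.22 ± 0.24) and *Mrpl1* (1.10 ± 0.17) it lost its call after the correction, where these 3 stood at 0.57, 0.38 and 0.18. In the small subunit *Mrps14* (1.27 ± 0.24), *Mrps31* (1.0 ± 0.34) and *Mrps33* (0.96 ± 0.26) rose and stood at 0.14, 0.37 and 0.31 after the correction, none past the threshold. *Mrps36*, the gene of the oxoglutarate dehydrogenase subunit, read 5.22, 5.24, 5.32 and 5.55 in WT and 6.27, 6.33 and 6.28 in C2-/-, and its rise of 0.96 ± 0.17 (adjusted p = 0.00186) was 0.71 ± 0.16 (adjusted p = 0.0124) after the correction, and 0.37 (adjusted p = 0.137) after that for GC content and length.

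Of the 24 members that rose, 10 were also higher past the threshold after the GC correction: *Mrpl52*, *Mrpl18*, *Mrpl47*, *Mrpl20*, *Mrpl53*, *Mrps22*, *Mrps36*, *Mrps10*, *Mrps15* and *Mrps28*. All 24 kept a positive change. With the correction 7 further members became higher and 4 became lower past the threshold, among them *Mrpl34*, at -0.08 before and 1.41 after, and *Mrpl17*, at -0.68 before and -1.44 after. The members outside the naming rule are given here for their calls. *Mrpl53* shares all of its exonic bases with *Ccdc142os* and *Gm42688*, so its value is uncertain without strand.

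**Figure D2:**
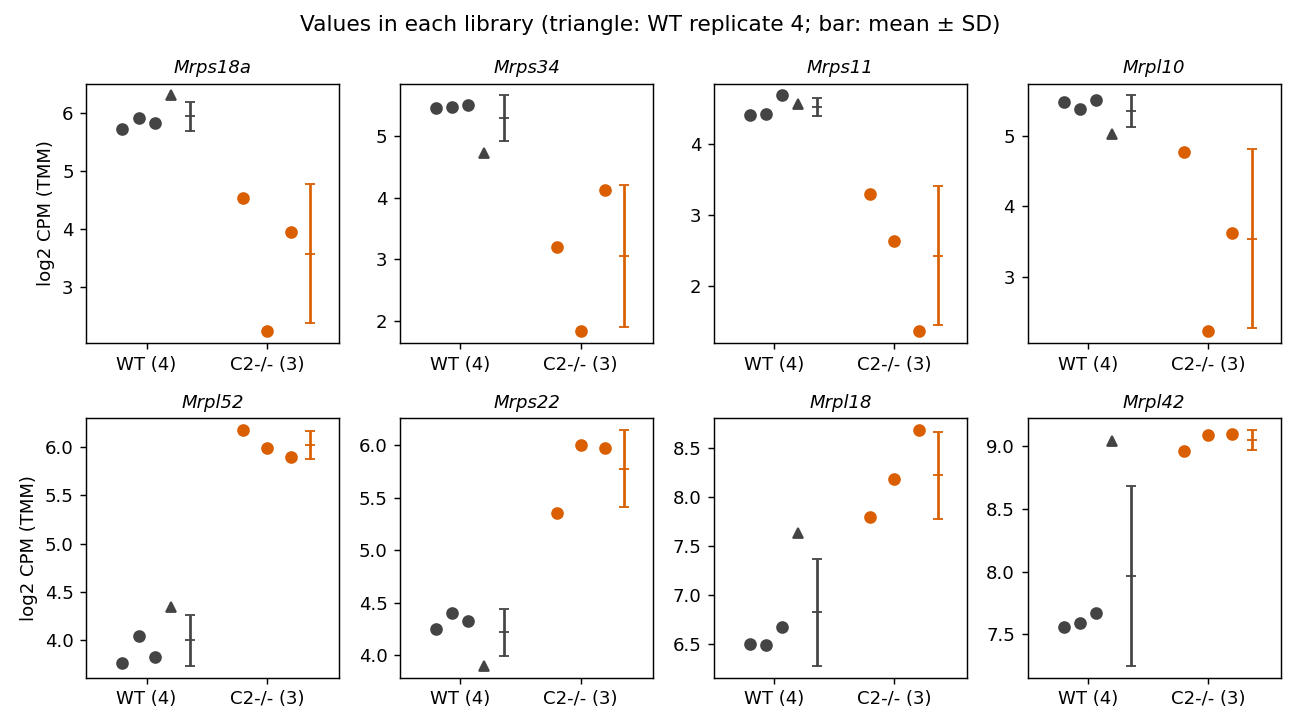
Log2 CPM (vertical axis) in each of the 4 WT and 3 C2-/- libraries for 4 members that fell (top) and 4 that rose (bottom); triangles are WT replicate 4, and bars are the mean ± SD. For *Mrpl52* all C2-/- values (5.89 to 6.17) lie above all WT values (3.77 to 4.35), whereas for *Mrpl42* WT replicate 4, at 9.04, lies among the C2-/- libraries.

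The members also differed in level. In WT the level per kb of transcript ran from 3.55 CPM per kb for *Mrpl19* to 416 CPM per kb for *Mrpl42*, with a median of 26.06, beside a median of 5.22 over all genes. After *Mrpl42* the order was *Mrps21* (151 CPM per kb), *Mrpl18* (98.6), *Mrpl33* (81.0), *Mrps15* (77.5), *Mrpl53* (73.1) and *Mrps18a* (70.5). Across the 77 members, level and change had a Spearman's rho of -0.10, a description across genes that share their libraries. *Mrpl42* read 7.56, 7.59, 7.67 and 9.04 in WT and 8.96, 9.09 and 9.10 in C2-/-, a rise of 1.09 ± 0.32 (adjusted p = 0.0207) in which WT replicate 4 stood inside the C2-/- range. Its call was kept in 2 of the 7 fits that left out a library, and without WT replicate 4 the change was 1.44 (adjusted p = 5e-05). The call was lost after the GC correction, at 0.77 (adjusted p = 0.1). *Mrps15* (5.93, 5.91, 5.82 and 6.82 in WT, and 6.99, 6.75 and 7.09 in C2-/-) and *Mrps31* (4.94, 5.01, 5.02 and 6.35, and 6.14, 6.70 and 6.15) had the same arrangement. *Mrpl33* rose by 0.70 ± 0.19 (adjusted p = 0.0128), a call lost after the correction (0.41, adjusted p = 0.131), and *Mrps21* changed by 0.14 ± 0.19 (adjusted p = 0.556).

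Some members hardly differed on the deposited values. *Mrpl57* changed by 0.02 ± 0.25 (adjusted p = 0.945), *Mrpl55* by 0.03 ± 0.23 (adjusted p = 0.933), *Mrps2* by 0.11 ± 0.23 (adjusted p = 0.719) and *Mrps30* by 0.24 ± 0.26 (adjusted p = 0.463). For all 4 the groups overlapped. *Mrpl57*, of low GC content (42.3%), was lower by 0.81 after the GC correction, at an adjusted p of 0.0499. *Mrps21*, of 52.7% GC, was higher by 0.77 (adjusted p = 0.032). Neither was past the threshold after the correction for GC content and length (-0.75, adjusted p = 0.0626, and 0.38, adjusted p = 0.126).

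WT replicate 4 lay between the other WT libraries and C2-/- for many members. Among the 24 that rose, the C2-/- mean exceeded WT replicate 4 for 23, by a median of 0.69, and exceeded the mean of WT replicates 1 to 3 by a median of 1.07. Among the 18 that fell, the C2-/- mean was below WT replicate 4 for all 18, by a median difference of -0.90, against -1.32 from WT replicates 1 to 3. WT replicate 4 stood nearer to C2-/- than to the rest of WT for 9 of the 24 and for 5 of the 18. Left out, it changed the calls of 10 members: *Mrpl20* and *Mrps25* were no longer past the threshold, *Mrps17* and *Mrpl30* were higher, and *Mrpl14*, *Mrpl48*, *Mrpl54*, *Mrps16*, *Mrps18b* and *Mrps27* were lower. *Mrpl14* (-0.65) and *Mrpl54* (-0.86) were instead higher after the GC correction of all libraries, at 1.07 (adjusted p = 0.0104) and 0.99 (adjusted p = 0.0247). *Mrpl48* was lower under both. Of the 42 calls, 28 were kept whichever of the 7 libraries was left out. Of the other 14, the calls of *Mrps31* and *Mrpl20* were kept in 1 of the 7 fits, those of *Mrpl42*, *Mrps9*, *Mrps15*, *Mrps25*, *Mrps26* and *Mrps28* in 2, those of *Mrps12* and *Mrpl53* in 3, that of *Mrpl51* in 4, those of *Mrpl3* and *Mrpl15* in 5 and that of *Mrpl33* in 6.

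**Figure D3:**
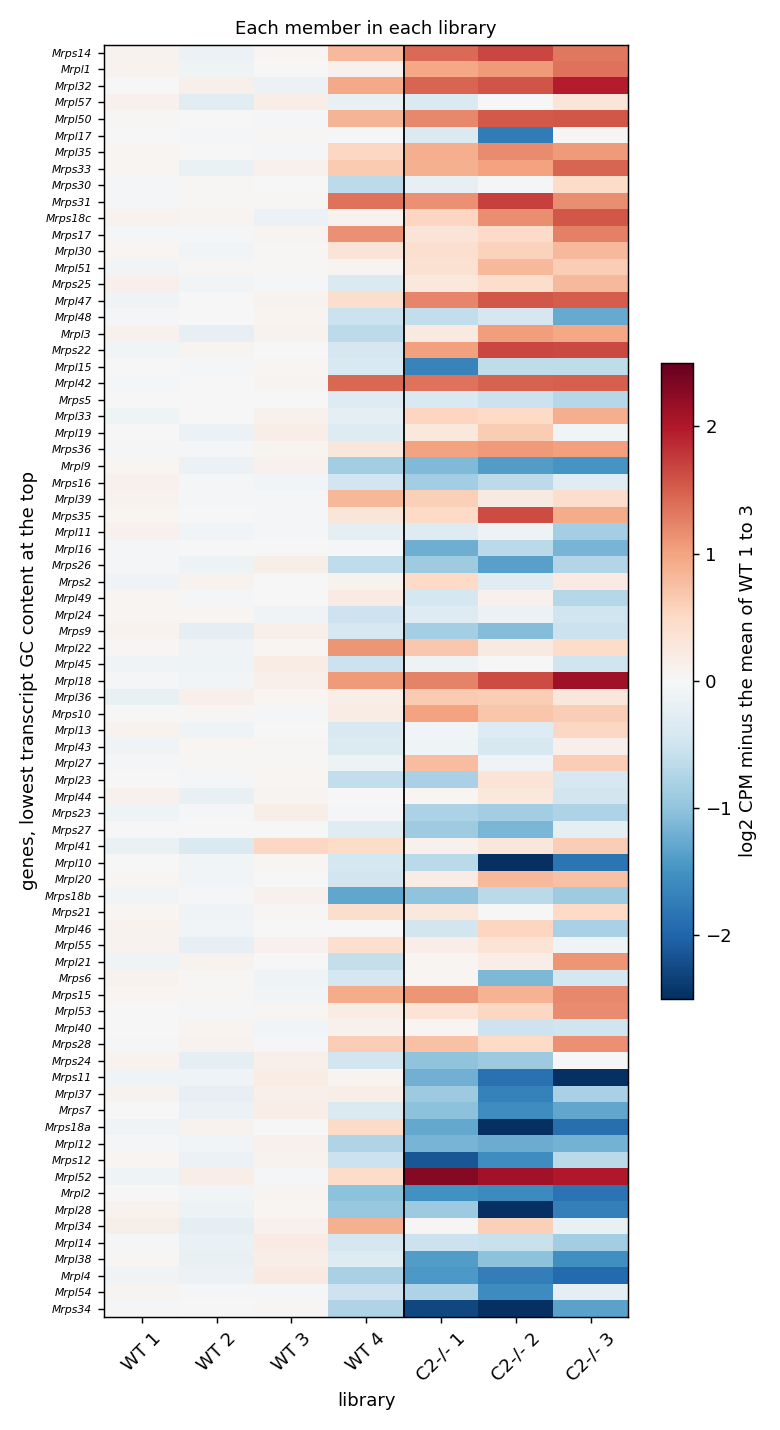
Each of the 77 members (rows, lowest transcript GC content at the top) in each of the 7 libraries (columns), as log2 CPM minus the mean of WT replicates 1 to 3, from blue (lower) to red (higher). WT replicates 1 to 3 are pale throughout, in part because their own mean was subtracted. The upper rows are mostly red and the lower rows mostly blue in C2-/-, and WT replicate 4 shows part of the same pattern.

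The direction of change went with the GC content of the transcript. Across the 77 members, log2 change and GC content had a Spearman's rho of -0.57 before the correction and 0.23 after it, beside -0.68 and -0.01 across 12174 genes. Of the 26 members of lowest GC content (39.6% to 47.4%) 16 rose and 2 fell, with a median of 0.80. Among all genes in that range 40.6% rose and 2.54% fell, and the median was 0.68. Of the 25 members of highest GC content (52.7% to 60.6%) 4 rose and 11 fell, with a median of -0.55, whereas among all genes in that range 3.15% rose, 2048 of 4096 fell and the median was -1.14. After the correction 3 of the 26 were higher and 6 lower, beside 9.11% higher and 8.0% lower among all genes in the lower range. Of the 25 members of the upper range, 9 were higher and 0 lower in limma (2 lower at an unadjusted p under 0.05), beside 14.3% higher and 7.98% lower among all genes in the upper range. Transcript length had a rho of 0.00 with the change before the correction and -0.55 after it. The part of GC content in the differences between genotypes cannot be told apart from genotype, because every C2-/- library carried the trend.

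**Figure D4:**
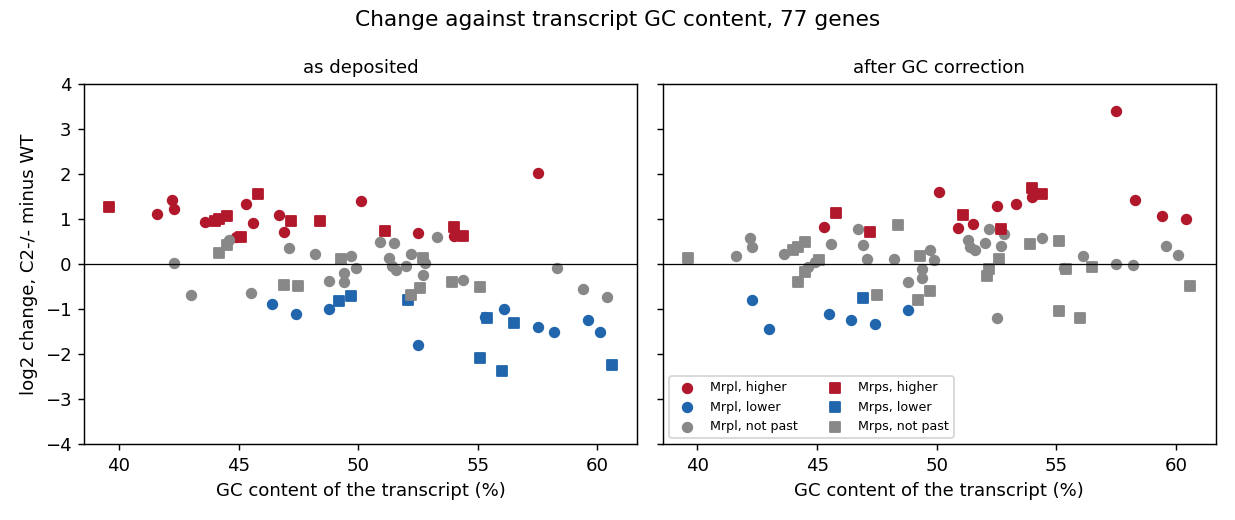
Log2 change (C2-/- minus WT, vertical axis) against the GC content of the transcript in percent (horizontal axis) for the 77 members, on the deposited values (left) and after the GC correction (right). Circles are *Mrpl* and squares *Mrps* genes, coloured by call; the downward slope at left (rho = -0.57) is absent at right (rho = 0.23), where *Mrpl52* stands alone at 3.40.

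The promoters of these genes were looked at for short sequences that occur near the start of many nuclear genes of mitochondria. Of the 77 members 68 had an entry among the RefSeq promoters of GRCm38.p6, which run from 250 bases before the start of the gene to 50 bases after it. The ETS-type sequence CCGGAAG, read on both strands, was in 24 of the 68 (35.3%), beside 9.1% of all 27025 genes with an entry and 18.2% of those in the expression table. The YY1-type sequence AAGATGGC was in 12 (17.6%), beside 2.9% and 4.8%, and the NRF1-type sequence GCATGCGC in 8 (11.8%), beside 2.8% and 5.5%. The Sp1-type sequence GGGCGG was in 34, beside 35.9% and 64.7%. None of the 4 sequences contains another on either strand, and a match is a description of the letters, not of binding. By direction of change, CCGGAAG was in 9 of 22 members that rose, 4 of 14 that fell and 11 of 32 of the rest, and AAGATGGC was in 3, 5 and 4 of the same groups.

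The promoters of the members with an entry that fell most and rose most are printed 5′ to 3′ on the strand of the gene, so that the places of these sequences can be seen. Capitals mark any match to the 4 sequences on either strand, and places are counted from 1 at the start of the gene, with negative numbers before it. *Mrps18a* is shown at chr17:46110754-46111023 (plus strand), *Mrpl52* at chr14:54426659-54426928 (plus strand) and *Mrps22* at chr9:98601660-98601929 (minus strand), each ending 20 bases past the start of the gene. For *Mrps11*, shown at chr7:78783090-78783140 (plus strand), only the 41 bases between its RefSeq start and the first exon of the coding *Mrpl46* transcript, and 10 bases after the start, are given.
Mrps18a: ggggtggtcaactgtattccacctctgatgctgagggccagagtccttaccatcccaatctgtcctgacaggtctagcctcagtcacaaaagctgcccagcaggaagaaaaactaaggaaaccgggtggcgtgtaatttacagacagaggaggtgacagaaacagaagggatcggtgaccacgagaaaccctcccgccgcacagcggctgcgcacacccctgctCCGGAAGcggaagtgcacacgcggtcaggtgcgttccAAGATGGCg
Mrps11: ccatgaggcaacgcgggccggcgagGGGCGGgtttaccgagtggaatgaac
Mrpl52: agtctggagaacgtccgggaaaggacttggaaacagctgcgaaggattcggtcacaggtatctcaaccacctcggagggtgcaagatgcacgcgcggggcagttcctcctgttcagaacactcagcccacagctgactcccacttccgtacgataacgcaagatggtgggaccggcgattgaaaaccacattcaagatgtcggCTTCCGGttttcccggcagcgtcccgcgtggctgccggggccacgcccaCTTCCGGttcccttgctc
Mrps22: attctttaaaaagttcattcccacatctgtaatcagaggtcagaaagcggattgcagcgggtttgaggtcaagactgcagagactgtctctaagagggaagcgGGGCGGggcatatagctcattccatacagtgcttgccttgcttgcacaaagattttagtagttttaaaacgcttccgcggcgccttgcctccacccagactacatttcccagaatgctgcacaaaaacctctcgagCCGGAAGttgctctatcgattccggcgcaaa
*Mrps18a*, which fell, and *Mrpl52* and *Mrps22*, which rose, all carried the ETS-type letters within 50 bases of their start, at -26, at -47 and 3, and at -11. *Mrps18a* also held the YY1-type letters at 12. *Mrps11* held the Sp1-type letters at -16 between the 2 coding transcripts, and the YY1-type letters at -107, inside the first exon of the coding *Mrpl46* transcript.

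Some proteins of the same ribosome have genes with other names. Of 5 such genes *Chchd1* rose by 1.29 (adjusted p = 0.000915), *Aurkaip1* fell by 1.37 (adjusted p = 0.0029) and *Gadd45gip1* fell by 1.32 (adjusted p = 0.000772). *Dap3* (-0.59, adjusted p = 0.0567) and *Ptcd3* (0.46, adjusted p = 0.0439) were not past the threshold. With the GC trend removed, *Chchd1* alone of the 5 was past it, at 1.18 (adjusted p = 0.00301).

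Genes whose products build or serve the ribosome were listed with earlier results of these data known. Over all genes 20.2% rose and 25.0% fell, with a median change of -0.14. Of 25 measured genes of mitoribosome assembly 4 rose and 12 fell, with a median change of -0.71. Those that rose included *Mettl15* (1.54, adjusted p = 0.00589), which methylates the small-subunit RNA, and *Malsu1* (1.29, adjusted p = 0.0072), which keeps the unfinished large subunit from joining the small one. Those that fell included *Nsun4* (-1.17, adjusted p = 0.0032) and *Eral1* (-1.29, adjusted p = 0.0141). With the GC trend removed *Mettl15* (0.69, adjusted p = 0.197), *Malsu1* (0.68, adjusted p = 0.0941) and *Eral1* (-0.58, adjusted p = 0.209) lost their calls, and *Nsun4* (-0.85, adjusted p = 0.0186) kept its call. The other 2 that rose, *Ngrn* (0.74) and *Mterf3* (1.53), were also past the threshold after it, at 1.19 (adjusted p = 0.00631) and 0.71 (adjusted p = 0.0474). Of 16 translation factors 4 rose and 4 fell. *Tufm*, the elongation factor that carries aminoacyl-tRNA to the ribosome, fell by 2.79 (adjusted p = 0.000302), and by 1.63 after the GC correction (adjusted p = 0.00141). *Mtrf1l*, a release factor, rose by 2.32 (adjusted p = 0.00077), and *Slirp*, which stabilises mitochondrial messenger RNA with *Lrpprc*, rose by 2.56 (adjusted p = 0.00245). Both were also past the threshold after the correction, at 2.08 and 1.83.

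Of 20 genes of mitochondrial aminoacyl-tRNA synthetases and amidotransferase subunits 1 rose and 9 fell, with a median of -0.50. The one that rose was *Gatc* (1.48, adjusted p = 0.00203), and *Tars2* (-1.33) and *Pars2* (-3.79) were lower before and after the GC correction. *Pars2* had 0 reads in 2 C2-/- libraries. Of 17 genes of mitochondrial transcription, genome upkeep and their nuclear regulators 8 rose and 4 fell, with a median of 0.63. *Ppargc1a*, a coactivator of mitochondrial biogenesis, rose by 1.61 (adjusted p = 0.00368) and *Yy1* by 1.03 (adjusted p = 0.00426), whereas *Esrra* fell by 2.42 (adjusted p = 0.000989) and *Polrmt*, the mitochondrial RNA polymerase, by 1.53 (adjusted p = 0.00238). After the correction *Yy1* was past the threshold, at 1.31, and the other 3 were not: *Ppargc1a* stood at 0.70, *Esrra* at -0.57 and *Polrmt*, which turned sign, at 0.25. Of 14 genes of protein import and mitochondrial mass 3 rose and 4 fell, with a median of -0.20. Citrate synthase (*Cs*), a common measure of mitochondrial content, fell by 0.88 (adjusted p = 0.00404), and by 0.63 after the correction (adjusted p = 0.0235). *Tomm40* (-2.17), *Timm23* (-1.40) and *Timm44* (-0.72) also fell, whereas *Cycs* (1.14), *Vdac2* (0.75) and *Tomm70a* (0.62) rose. *Vdac1* (-0.30), *Tomm20* (-0.03), *Hspd1* (-0.01) and *Immt* (-0.11) were not past the threshold. After the correction *Cs*, *Timm23* and *Vdac3* were lower and *Vdac2* was higher. The genes that the mitochondrial genome encodes were not analysed here.

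After the GC correction the counts in these lists were 3 higher and 1 lower of the 25 assembly genes, 2 and 3 of the 16 factors, 1 and 2 of the 20 synthetase genes, 3 and 0 of the 17 transcription genes (1 lower at an unadjusted p under 0.05 in limma), and 1 and 3 of the 14 import genes. Among all genes 12.3% were higher and 8.33% lower after the same correction. The medians of the 5 lists were then -0.11, -0.21, -0.26, 0.34 and -0.34 in the same order, where the deposited values gave -0.71, -0.22, -0.50, 0.63 and -0.20. The 78 cytosolic ribosomal protein genes, taken by symbol, gave 16 that rose and 23 that fell with a median of -0.29. The 35 subunit genes of respiratory complex I gave 12 and 9 with a median of 0.19. These counts stand beside 20.2% and 25.0% of all genes. The GC correction gave 23 higher and 17 lower cytosolic genes, with a median of 0.26, but the correction for GC content and length gave 13 and 24. For complex I they gave 14 and 5, with a median of 0.41, and 12 and 5. Among all genes the correction for GC content and length gave 12.4% higher and 8.3% lower. Both families thus also held genes moving either way, and their difference from the mitochondrial ribosomal protein genes was not tested.

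Markers of other cells in the muscle were read beside these counts. Of 6 fibro-adipogenic and adipocyte markers 3 rose (*Dcn*, *Lum* and *Pdgfra*), with summed levels of 274 to 397 CPM in WT and 1120 to 1170 CPM in C2-/-, and none was at 0 reads. *Dcn*, at a mean log2 level of 8.08 in WT and 10.02 in C2-/-, made up most of both sums. The adipocyte markers *Adipoq* (1.11), *Plin1* (2.5) and *Cfd* (-0.16) did not pass the threshold. Of 8 macrophage and leukocyte markers 2 rose (*Itgam* and *Mrc1*), with summed levels of 47.8 to 61.9 CPM in WT and 54.4 to 90.1 CPM in C2-/-, and *Cd14* had 0 reads in 1 library. Of 6 endothelial markers 1 rose and 1 fell (323 to 450 CPM and 285 to 373 CPM), of 4 Schwann cell markers 1 fell (32.8 to 73.4 CPM and 32.5 to 57.3 CPM), and of 5 erythroid markers *Alas2* was measured and fell (4.10 to 5.15 CPM and 1.03 to 2.06 CPM). With the GC trend removed 2 fibro-adipogenic and adipocyte markers (*Dcn* at 1.16 and *Plin1* at 3.81) and 1 leukocyte marker were higher, and the calls of the endothelial, Schwann cell and erythroid markers were lost. The part of these cells in the changes of the members was not tested.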

How the data were processed

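RNA sequencing of 7 TA muscles (4 WT, 3 C2-/-) was grouped by sample title. The authors filtered the reads for quality and adaptors, mapped them to GRCm38.p6 with HISAT (version not given in the sources used here) and counted genes with featureCounts 1.5.2. TMM scaling in edgeR followed, and log2 CPM values of 12239 genes were deposited. No source gives the filter on low genes, the handling of reads with several positions or whether strand was used. A second deposited table held the authors' own fold changes and p-values and was not used. Low values stepped in whole reads plus 0.5, and 100.0% of values gave whole reads within 0.0001; 3 reads stood at 0.195 to 1.12 CPM by library, a floor that covers counting error only. Falls to few reads are therefore understated on this scale.

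The deposited log2 values were tested with limma 3.58.1 in R 4.3.3 (mean-variance trend, genotype only, two-sided, Benjamini-Hochberg adjustment over all genes), after a check on simulated data. The simulated counts had the same dispersion for every gene, few changed genes and no GC trend. The check therefore does not show how often calls are false in libraries with that trend. GC content and length came from the longest coding transcript of GENCODE M21 on GRCm38 for 12174 genes; the GC correction replaced a natural spline of 5 degrees of freedom in each library by the mean curve of the libraries. Level per kb is CPM over that length. Tables were made with Python 3.11.15 and pandas 2.3.3. The members and all gene lists were chosen with earlier results of these data known. Named members were, by symbol subunit, the 6 largest falls and 6 largest rises past the threshold, the 3 highest levels per kb, the 2 changes nearest 0, and members chosen for their role; *Mrpl58*, listed for its role, was not analysed here. Alternatives comprised other scalings, offsets, filters, thresholds, variance models, a replicate block and leaving out each library.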

Additional observations from a re-analysis of the deposited data

Results flagged for a closer look

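In the 4 WT libraries, 1 library lay farther from the others than Dixon's 95% limit for 11 of the 38 quantities looked at, which were the 37 named members and the summed level of all members. Chance would give about 1.9 if these quantities were independent, but they share the same 4 libraries and the last is a sum over the members. The count is therefore no test, and the share of all genes beyond this limit is not given here. WT replicate 4 was the distant library for 9 of the 11. It lay high for *Mrpl18* (7.63, against 6.49 to 6.68 in the other WT libraries), *Mrpl50* (6.68, against 5.77 to 5.86), *Mrpl42* (9.04, against 7.56 to 7.67), *Mrps31* (6.35, against 4.94 to 5.02) and *Mrps15* (6.82, against 5.82 to 5.93). These 5 members rose in C2-/-. It lay low for *Mrpl2* (5.00, against 5.97 to 6.09) and *Mrps34* (4.73, against 5.45 to 5.50), which fell in C2-/-, and for *Mrps18b* (3.58, against 4.80 to 4.98) and *Mrps30* (4.30, against 4.92 to 4.97), which did not pass the threshold. WT replicate 4 held 4683853 reads, fewer than the other WT libraries. GC content took up 9.5% of the variance of its departure from the mean of WT replicates 1 to 3. The part of depth or GC content in these values was not tested. The other distant libraries were WT replicate 2 for *Mrpl37* (6.31, against 6.61 to 6.67) and WT replicate 3 for *Mrps18c* (4.28, against 4.48 to 4.50).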

How the results depend on the processing

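The counts of members that rose (24) or fell (18), of *Mrpl* genes that fell (10) and of *Mrps* genes that fell (8) stayed within 1.5 times these values, except as follows. With the GC correction 7 members were lower (6 *Mrpl*, 1 *Mrps*), and with GC content averaged over all coding transcripts, an alternative chosen after seeing the data, 7 (4 and 3). After a correction for GC content and length 11 were higher and 8 lower (5 and 3), and without WT replicate 4, with the GC correction, 10 were lower (6 and 4). At an adjusted p under 0.01, 12 members were higher and 5 *Mrps* genes lower. Leaving out 1 library gave 14 to 24 higher members, 14 to 24 lower, 9 to 13 lower *Mrpl* genes and 5 to 11 lower *Mrps* genes. The fewest higher members, 14, came without C2-/- replicate 3, and 5 lower *Mrps* genes were left without WT replicate 1, 2 or 3 or C2-/- replicate 1. The median change of the members, 0.02, was -0.05 to 0.04 with 1 library left out, 0.18 after median centring, which moved the median of all genes by 0.16 as well, 0.23 after the GC correction, 0.17 with GC content over all coding transcripts, 0.14 with GC content and length, and 0.26 without WT replicate 4, with the GC correction. The median of the members lay 0.16 above that of all genes on the deposited values. It lay at -0.04 relative to all genes after quantile normalization, which moved the median of all genes by 0.19, and also at -0.04 when genes whose mean log2 value was under 3 were left out. The cause of these differences was not tested.

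Replicate numbers 1 to 3 occur in both groups, but same-numbered libraries did not deviate together (correlations of 0.053, -0.064 and -0.053). Each C2-/- library correlated best with a WT library of another number. These were WT replicate 3 for C2-/- replicate 1 (0.12) and WT replicate 4 for C2-/- replicates 2 (0.06) and 3 (0.026). The replicate block, which leaves out WT replicate 4, gave 24 higher and 24 lower members; the replicate block with the GC correction gave 10 lower members, 3 of them *Mrps*, and a median of 0.26.

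Some changes turned sign. After the GC correction, with GC content and length, with GC content over all coding transcripts, in the replicate block with the GC correction and without WT replicate 4 with the GC correction, in that order, *Mrpl4* stood at 0.19, 0.04, 0.13, 0.12 and 0.12, *Mrpl38* at 0.40, 0.28, 0.35, 0.45 and 0.45, *Mrpl12* at 0.18, 0.03, 0.12, 0.09 and 0.09, *Mrpl44* at 0.46, 0.32, 0.33, 0.51 and 0.51, *Mrps30* at -0.39, -0.32, -0.51, -0.60 and -0.60, and *Mrpl57* at -0.81, -0.75, -0.92, -0.93 and -0.93. *Mrpl37* stood at 0.03 under the last 2 of these, *Mrpl33* at -0.02 with GC content and length, *Mrps18b* at 0.10 after the GC correction and *Mrps12* at 0.09 with GC content over all coding transcripts. Near 0 to begin with, *Mrpl57* also stood at -0.09 with library weights, -0.02 in the replicate block and -0.14 to -0.02 without 1 of 3 libraries, *Mrpl55* at -0.05 with thinned reads and -0.08 to 0.15 with 1 library left out, *Mrps2* at -0.07 without C2-/- replicate 1, and *Mrpl44* at 0.11 after median centring and -0.21 to 0.16 with 1 library left out. Over the 37 named members and all alternatives, 661 values kept direction and call, 130 lost the call, 14 gained one and 46 turned sign. Depth limits the members of fewest reads, down to 9 in a C2-/- library.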
